A study of Sus scrofa with 5 samples.

Results

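MicroRNAs (miRNAs) best known from the nervous system were followed through small RNA libraries of pig embryonic and somatic cells. The members were the mature miRNA names ssc-miR-7, ssc-miR-9, ssc-miR-9-1, ssc-miR-9-2, ssc-miR-124a, ssc-miR-128, ssc-miR-129a-5p, ssc-miR-129a-3p, ssc-miR-129b, ssc-miR-137 and ssc-miR-153. They were found by name in the table of reported miRNAs, and made up 11 of its 411 mature names and 22 of its 493 rows, each row a mature miRNA at a precursor. ssc-miR-219 was also looked for, and 0 names matched it with or without an arm ending. All 11 had a read in at least 1 library, as did 327 names in all.

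Blastocysts (BLs) had 2 libraries, BL_1 and BL_2, each from a pool of day 7 parthenogenetic embryos, which develop from electrically activated oocytes without sperm. ES-like cells, an XX embryonic stem cell-like line derived from blastocysts, were grown with serum, stem cell factor and basic fibroblast growth factor on mouse embryonic fibroblast feeders. Embryoid bodies (PEBs) were formed from colonies of that line in hanging drops with serum but without the cytokines. Pig fetal fibroblasts (PFFs, XY) were grown with serum from fetal tissue freed of the head, limbs and internal organs. The labels name no transgene or deletion for any group. ES-like cells, PEBs and PFFs had 1 library each, so differences among them have no replicate check.

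A miRNA is cut from a hairpin precursor as a short strand from the 5p or the 3p arm, and guides the silencing complex to messenger RNAs that match its seed. miR-9 is typical of neural progenitors, in which it limits proliferation and promotes neurogenesis, and miR-124 of neurons. miR-128 and miR-137 act in neuronal maturation, miR-129 and miR-153 in synaptic regulation, and miR-7 is known from brain, pituitary and pancreatic islets. None of these roles was measured here.

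Of the 13 precursors, 12 had an entry under the same name in the RefSeq gene table of assembly Sscrofa11.1, which is not the build of the deposited files and was used only for neighbouring genes. MIR7-2 lay within the span of HNRNPK, an RNA-binding protein gene, and MIR7-1 between AEN and DET1. MIR128-1 lay within R3HDM1 and MIR128-2 within ARPP21. MIR9-2 was placed between TMEM161B and MEF2C, MIR137 between SNX7 and DPYD, and MIR129B between LEP and SND1. MIR9-1 and MIR129A lay within the spans of long non-coding RNA genes known only by locus numbers.

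The libraries differed widely in depth, from 113743 mature miRNA reads (BL_1) and 2782150 (BL_2) to 6372500 (ES-like cells), 15849954 (PEBs) and 27071931 (PFFs). Levels are given as reads scaled to a library total of 1000000 mature miRNA reads (RPM). The limit set by a count of 0 (3 counts) was 26.4 RPM in BL_1, 1.08 RPM in BL_2 and 0.111 RPM in PFFs. The paper reports that miRNAs were a much smaller part of all small RNAs in both BL libraries than in the cultured ones. RPM is thus a share of the miRNA reads, and levels relative to all small RNAs were not compared. The study's own read summary lists the totals of ES-like cells and PFFs the other way round from the count columns, and the columns were used as they are named. In the column named for PFFs, 6 fibroblast and mesenchymal miRNAs summed to 703675 RPM, against 212625 RPM in ES-like cells, 320001 RPM in PEBs, and 38842 and 70192 RPM in BLs. Most of the sum was ssc-miR-21 in PFFs (522808 RPM), and nearly all of it in BL_1 (38578 RPM) and BL_2 (69981 RPM). ssc-miR-143-3p, ssc-miR-145-5p and ssc-miR-21 were higher in PFFs than in PEBs, while ssc-miR-199a-3p, ssc-miR-199a-5p and ssc-miR-214 were higher in PEBs. ssc-miR-371-5p held 324635 and 296148 RPM in BLs and at most 30.9 RPM in the other libraries. ssc-miR-106a, ssc-miR-363 and ssc-miR-20b summed to 51780 RPM in ES-like cells, against 13009 RPM (PEBs), 335 RPM (PFFs), and 536 and 417 RPM (BL_1 and BL_2). The miR-302 and miR-367 names of the same list were looked for, and 0 matched, so no level could be read for them in any library. Liver and endoderm miRNAs (ssc-miR-122, ssc-miR-192 and ssc-miR-194a) summed to 107725 RPM in ES-like cells against 57248 (PEBs) and 15.6 RPM (PFFs).

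The same reads were counted under several names and precursors. ssc-miR-9, ssc-miR-9-1 and ssc-miR-9-2 each had 3 precursor rows, and all 9 rows held 73 (BL_1), 2253 (BL_2), 17818 (PEBs) and 1050 reads (PFFs), with 1551 or 1552 for ES-like cells. ssc-miR-129a-5p and ssc-miR-129b had equal counts in every library. With counts within 0.1% taken as equal, the 11 names gave 8 distinct profiles. These are described once each as miR-7, miR-9, miR-124a, miR-128, miR-129-5p, miR-129a-3p, miR-137 and miR-153. Counts are summed over the precursor rows of 1 name, so a level of miR-9 stands for 3 rows and those of miR-7, miR-128, miR-129-5p and miR-124a for 2. Repeat counting also enters the library totals. With the largest precursor count of each name in place of the sum, the ratio of PEBs to ES-like cells moved from 4.62 to 5.03 for miR-9, from 0.363 to 0.396 for miR-7 and from 0.515 to 0.561 for miR-128. Levels of different miRNAs are compared below per precursor row. Ratios between libraries also move with the scaling, and several are also given with the TMM factors of edgeR or the size factors of DESeq2. The ratio of ES-like cells to PFFs moved most, from 7.99 with RPM to 3.03 with TMM for miR-128, from 6.28 to 2.38 for miR-9 and from 0.822 to 0.312 for miR-129-5p.

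**Figure D1:**
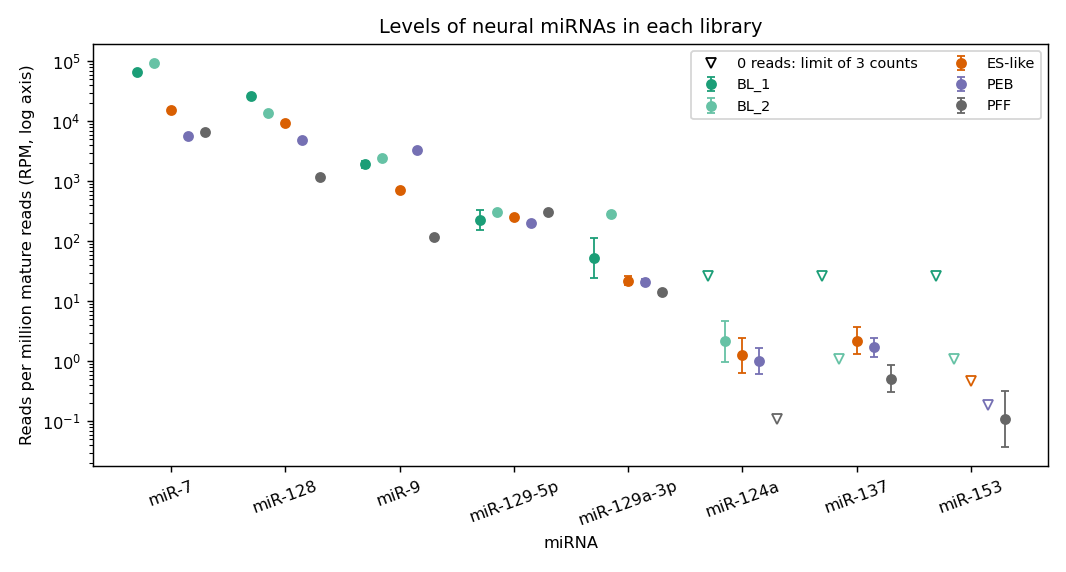
Level of each neural miRNA in each library, in RPM on a log axis. Points are single libraries with 95% Wilson intervals for counting error, and open triangles mark 0 reads at the limit of 3 counts. miR-7 stood at 67591 and 92756 RPM in the BL libraries, miR-9 was highest in PEBs, and miR-124a, miR-137 and miR-153 stayed below 3 RPM wherever they had a read.

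Which of these miRNAs were high in blastocysts was asked with a rule by which the mean of the BL libraries must exceed 2 times the value of each other cell type. miR-7, miR-128 and miR-129a-3p passed, which is 3 of 11 names, against 61 of 327 names in the whole table (18.7%). miR-7 was the most abundant of the members in all 5 libraries. By summed reads it ranked 3 among all names in both BL libraries, against 11, 31 and 17 in the libraries of ES-like cells, PEBs and PFFs. By mean reads per precursor row its ranks were 6 (BL_1), 5 (BL_2), 21 (ES-like cells), 40 (PEBs) and 20 (PFFs).

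miR-7, a regulator of epidermal growth factor receptor signalling, had 7688 and 258060 reads in the BL libraries and 98208, 88572 and 182005 in those of ES-like cells, PEBs and PFFs. BL_1 stood at 67591 RPM, BL_2 at 92756, ES-like cells at 15411, PEBs at 5588 and PFFs at 6723. As a share of mature miRNA reads, both BL libraries lay above all cultured libraries. The BL mean of 80173 RPM ± 17794 (SD, n = 2) was 5.20 times the level in ES-like cells, 14.3 times that in PEBs and 11.9 times that in PFFs. With TMM these ratios were 8.77, 17.2 and 7.64, and with DESeq2 size factors 8.14, 22.1 and 9.22. Against ES-like cells, BL_1 alone was 4.39 times and BL_2 alone 6.02 times as high with RPM, 6.53 and 11.0 times with TMM, and 7.23 and 9.05 times with DESeq2 size factors. miR-7 took 6.76% of all mature reads in BL_1 and 9.28% in BL_2, with its 2 precursor rows summed, and under 1.6% in each cultured library.

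The 2 BL libraries were compared with the 3 cultured libraries by edgeR's quasi-likelihood test over 279 names, with Benjamini-Hochberg adjustment. Of these, 18 (6.45%) were called higher and 15 (5.38%) lower in BLs, and 10 of the 11 names were tested. The calls were 22 higher and 35 lower with library totals without TMM, 35 and 65 with DESeq2, and 17 and 6 with limma-voom. With edgeR's test, miR-7 was called higher, with a log2 fold change of 3.31 ± 0.76 (SE) and an adjusted p of 0.0437. It was higher in 2 of 2 BL libraries. The call was lost without BL_1, BL_2, ES-like cells or PEBs, with log2 fold changes of 4.23, 2.98, 3.35 and 3.04 in that order. With edgeR's test, the adjusted p was 0.0510 without ES-like cells and 0.124 without PEBs. Over all 12 alternatives, the adjusted p of miR-7 ran from 0.000328 to 0.206. Over the whole table, the 33 calls became 0 without either BL library, 16 without ES-like cells, 3 without PEBs and 89 without PFFs. The cultured libraries are of 3 cell types, so the spread in this test includes differences between cell types.

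miR-128, which dampens neuronal excitability in the mouse brain, had 2970 and 38009 reads in the BL libraries, and ES-like cells had 60458, PEBs 77510 and PFFs 32134. Its levels were 26111.5, 13662, 9487, 4890 and 1187 RPM in that order. The order was BL_1, BL_2, ES-like cells, PEBs and PFFs, and no 95% Wilson interval of these levels touched the next. These intervals cover counting error and not the spread between samples, and BL_2 was 0.523 times BL_1. The BL mean of 19887 RPM ± 8803 (SD, n = 2) was 2.10 times the level in ES-like cells with RPM, just past the rule, 3.37 times with TMM and 3.35 times with DESeq2 size factors. With RPM, BL_1 alone was 2.75 times as high as ES-like cells and BL_2 alone 1.44 times, short of the rule. BL_2 alone passed it with TMM (2.64 times) and with DESeq2 size factors (2.17 times), with which BL_1 alone was 4.10 and 4.54 times as high. With edgeR's quasi-likelihood test, the log2 fold change was 2.30 ± 0.74 (SE) with an adjusted p of 0.0787, which ran from 0.0252 to 0.258 over the alternatives.

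miR-129a-3p had 6 and 799 reads in BL_1 and BL_2, and 141, 333 and 384 in ES-like cells, PEBs and PFFs. At 52.8 RPM (95% Wilson interval 24.2 to 115) and 287 RPM (268 to 308), BL_1 and BL_2 differed beyond counting error. ES-like cells had 22.1 RPM (18.8 to 26.1), PEBs 21.01 RPM and PFFs 14.2 RPM. The interval of BL_1 overlapped that of ES-like cells, and BL_2 was 13.0 times as high as ES-like cells with RPM, 23.8 times with TMM and 19.5 times with DESeq2 size factors, against 2.38, 3.55 and 3.93 times for BL_1. The BL mean of 170 RPM ± 166 (SD, n = 2) was 7.68 times that of ES-like cells, the highest cultured library with RPM. With TMM PFFs were the highest, and the BL mean was 8.09 times as high. Its log2 fold change in edgeR's quasi-likelihood test was 3.37 ± 0.95 (SE; adjusted p = 0.0591), with adjusted p from 0.000948 to 0.365 over the alternatives. Without BL_2 the log2 fold change was 1.54. It was called under 3 of 12 alternatives, which were DESeq2, library totals without TMM and leaving out PFFs.

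The other arm of the same hairpin did not share this order. miR-129-5p had 26 (BL_1), 873 (BL_2), 1607 (ES-like cells), 3195 (PEBs) and 8309 reads (PFFs), which was 229, 314, 252, 202 and 307 RPM. Its levels in BLs (271 RPM ± 60.2, SD, n = 2) overlapped those of the cultured cells. The log2 fold change was 0.04 ± 0.82 (SE, edgeR's quasi-likelihood test, adjusted p = 0.967), and its sign turned under 5 of 12 alternatives.

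Counted at the precursor ssc-mir-129a, which gives both arms, the 3p arm made up 64.5% of 1239 reads in BL_2 (95% Wilson interval 61.8 to 67.1%). It made up 14.8% of 950 reads in ES-like cells (12.7 to 17.2%), 17.1% of 1942 in PEBs (15.5 to 18.9%) and 8.43% of 4556 in PFFs (7.66 to 9.27%). BL_1 had 19 such reads, 31.6% of them from the 3p arm (15.4 to 54.0%). The 3p arm thus outnumbered the 5p arm in BL_2 only, and the interval of BL_1, with few reads, overlapped those of ES-like cells and PEBs and lay above that of PFFs. It also lay below that of BL_2, so the BL libraries differed from each other in arm use beyond counting error. Reads of ssc-mir-129b are largely the same 5p reads, so the 5p arm may be counted too high here in every library.

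**Figure D2:**
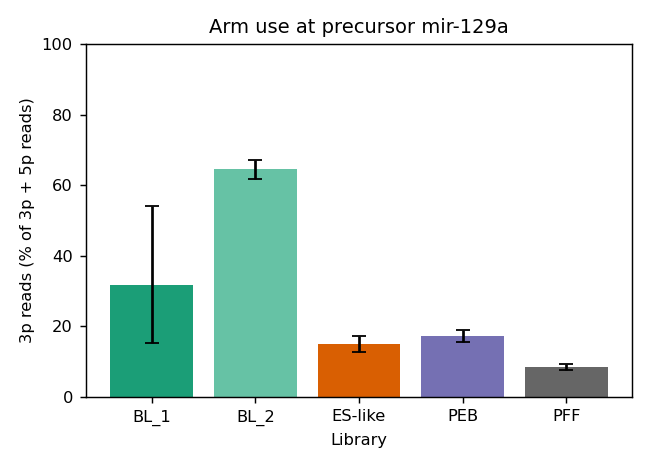
Share of 3p reads among the 3p and 5p reads counted at precursor ssc-mir-129a, in percent, for each library. Bars are single libraries and error bars are 95% Wilson intervals for counting error. BL_2 stood at 64.5% and the cultured libraries between 8.43% and 17.1%, while the interval of BL_1 ran from 15.4 to 54.0%.

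Which of these miRNAs rose in embryoid bodies was asked by comparing PEBs with the ES-like cells they were made from. With 1 library on each side there is no test, and a ratio of RPM over 2 or under 0.5 was counted as a difference. All 3 names of miR-9 lay above 2 (66 of 314 names in the table, 21%), and miR-7 lay below 0.5 (84 of 314, 26.8%). With TMM, 97 names of the table lay above 2 and 51 below 0.5. In these bulk samples, fewer cells of a type and less RNA per cell cannot be told apart. The median log2 ratio was -0.32 over the 7 profiles with a read in both libraries and -0.23 over all 301 such names.

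miR-9, whose reads per precursor row are given above, stood at 1925 RPM in BL_1 and 2429 RPM in BL_2, and at 730.2 RPM (ES-like cells), 3372 RPM (PEBs) and 116 RPM (PFFs) in culture. With RPM and with TMM it was highest in PEBs, next in both BL libraries and lowest in PFFs. With DESeq2 size factors BL_2 came first, at 1.06 times PEBs. PEBs were 4.62 times as high as ES-like cells (95% interval 4.48 to 4.76, exact conditional binomial, counting error only) and 29.0 times as high as PFFs (15.5 times with TMM). The interval is too narrow, since it rests on counts summed over precursor rows that hold the same reads. Among the 272 names with at least 10 reads in both libraries, the ratio of PEBs to ES-like cells was the fifth highest. Scaling moved its size and not its direction, from 4.62 with RPM to 6.51 with TMM-scaled library sizes.

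BLs were also above ES-like cells in miR-9, by 2.98 times for their mean with RPM (2177 RPM ± 356, SD, n = 2) and 5.01 times with TMM. Against PFFs they were 18.7 times as high with RPM and 11.9 times with TMM. They did not pass the 2-fold rule, since their mean was 0.646 times that of PEBs with RPM, 0.770 times with TMM and 0.995 times with DESeq2 size factors. In edgeR's quasi-likelihood test of BLs against cultured libraries, which sets PEBs and PFFs on the same side, miR-9 had a log2 fold change of 0.92 ± 1.18 (SE; adjusted p = 0.546). It was 2.82 without PEBs (adjusted p = 0.113), 1.88 without BL_1, and 0.40 without ES-like cells (adjusted p = 0.828), with edgeR in each case. limma-voom gave 1.86, and the adjusted p over all 12 alternatives ran from 0.113 to 0.828.

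The other listed markers of neural cells, miR-124a and miR-137, had few reads, and their ratios of PEBs to ES-like cells lay within 2-fold. miR-124a, among the most abundant miRNAs of neurons, had 0 reads in BL_1 and PFFs, while BL_2 had 6, ES-like cells 8 and PEBs 16, each the sum of 2 identical rows (3, 4 and 8 reads). PEBs stood at 1.01 RPM against 1.26 RPM in ES-like cells, a ratio of 0.804 (95% interval 0.215 to 3.65 from the reads of 1 row). miR-137, a regulator of neural stem cells, had 0 reads in both BL libraries. ES-like cells had 14 reads (2.20 RPM), PEBs 27 (1.70 RPM) and PFFs 14 (0.517 RPM). Its ratio of PEBs to ES-like cells was 0.775 (0.393 to 1.60). With TMM, the ratios of miR-124a and miR-137 turned above 1, at 1.13 and 1.09. miR-153, a regulator of alpha-synuclein, had 3 reads in PFFs and 0 reads in every other library. The depth of BL_1 could not show levels of this size, and BL_2 allowed at most 1.08 RPM for miR-137.

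Other marker lists moved between the same libraries as miR-9. From ES-like cells to PEBs, the 6 fibroblast and mesenchymal miRNAs went from 212625 to 320001 RPM in sum. The 3 skeletal muscle miRNAs went from 188 to 549 RPM in sum. They summed to 1073 and 2442 RPM in BL_1 and BL_2 and to 1017 RPM in PFFs. Among them, ssc-miR-1 went from 155 to 503 RPM and ssc-miR-133a-3p from 12.6 to 26.6 RPM. ssc-miR-206 stood at 20.1 RPM in ES-like cells and 20.0 RPM in PEBs. Of the blood cell miRNAs, ssc-miR-142-3p went from 6.75 to 27.0 RPM and ssc-miR-142-5p from 11.0 to 55.8 RPM, while ssc-miR-451, the marker of red blood cells, went from 13.8 to 0.820 RPM. The 3 pluripotency-associated miRNAs in the table went from 51780 to 13009 RPM, and the liver and endoderm list from 107725 to 57248 RPM. The part of these cell types, and of mouse feeder cells in the ES-like library, in the level of miR-9 was not tested.

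miR-7 and miR-128 lay lower in PEBs than in ES-like cells. Levels of miR-7 in ES-like cells were 2.76 times those in PEBs (95% interval 2.73 to 2.78), and those of miR-128 were 1.94 times (1.92 to 1.96), short of 2-fold. These intervals cover counting error only and are too narrow where a read was counted in more than 1 precursor row. With TMM-scaled library sizes, PEBs were 0.511 times ES-like cells for miR-7 and 0.726 times for miR-128, so miR-7 no longer passed the 2-fold limit. The scaling itself moved the median log2 ratio of PEBs to ES-like cells over 272 names from -0.22 with RPM to 0.27 with TMM. Ratios of miR-129-5p (0.799) and miR-129a-3p (0.9495) lay within 2-fold with RPM, and above 1 with TMM at 1.13 and 1.34.

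**Figure D3:**
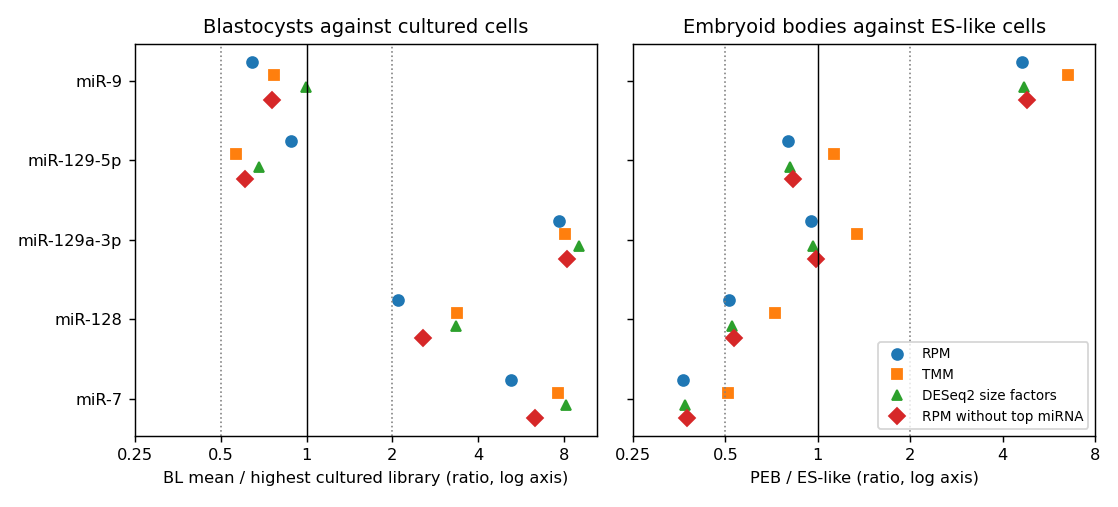
Ratios of the BL mean to the highest cultured library (left) and of PEBs to ES-like cells (right) for 5 miRNAs, on log axes, under 4 ways of scaling the libraries. The solid line marks equal levels and dotted lines mark 2-fold differences. miR-7 and miR-129a-3p stayed above 2-fold in BLs, miR-9 stayed above 4-fold in PEBs, and the ratio of miR-7 in PEBs moved from 0.363 with RPM to 0.511 with TMM.

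The balance among the members changed with these shifts. Per precursor row, miR-7 had 2.49 times the reads of miR-9 in PEBs, against 31.7 times in ES-like cells, 86.7 times in PFFs and 52.7 and 57.3 times in the BL libraries. The ratio of miR-7 to miR-128, each with 2 rows, was 1.14 in PEBs, 1.62 in ES-like cells, 5.66 in PFFs, 2.59 in BL_1 and 6.79 in BL_2. BL_1 and BL_2 thus differed in it by more than ES-like cells and PEBs did.

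Pluripotent cells (BLs and ES-like cells, 3 libraries) were also compared with differentiated cells (PEBs and PFFs, 2 libraries). edgeR's quasi-likelihood test called 0 of 279 names (0%), with 29 at an unadjusted p under 0.05, while limma-voom called 0 and DESeq2 called 14. None of the 10 tested members was called by these tools, and an unadjusted p under 0.05 was reached by 0 of them in edgeR and limma-voom and by 3 in DESeq2. By edgeR, the log2 fold changes were 2.90 ± 1.42 (SE) for miR-7 and 2.29 ± 1.14 for miR-128, each with an adjusted p of 0.397. miR-128 was higher in 3 of 3 pluripotent libraries than in PEBs and PFFs with RPM, TMM and DESeq2 size factors. miR-7 was so in 3 of 3 with RPM and DESeq2 size factors and in 2 of 3 with TMM, with which ES-like cells were 0.870 times PFFs. For miR-9 the log2 fold change was 0.08 ± 1.36 (SE; adjusted p = 0.988 in edgeR). PEBs and PFFs lay at opposite ends of its range with RPM and with TMM, while with DESeq2 size factors BL_2 lay above PEBs.

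Profiles were compared by the root mean square difference of log2(RPM + 1), each centred on its own mean over the 5 libraries, among 116 names with at least 10 reads in every library. The nearest to miR-9 was ssc-miR-146a-5p at 0.25, a regulator of innate immune signalling, with 158, 199.8, 49.1, 203 and 5.28 RPM in BL_1, BL_2, ES-like cells, PEBs and PFFs. The next were ssc-miR-424-3p at 0.97 and ssc-miR-30d at 0.97, much farther off. Nearest to miR-7 were ssc-miR-361-3p (0.33), ssc-miR-423-5p (0.50) and ssc-miR-425-5p (0.63). For miR-128 they were ssc-miR-30d (0.51), ssc-miR-362 (0.53) and ssc-miR-423-3p (0.60), and for miR-129-5p ssc-miR-28-5p (0.31), ssc-miR-7134-5p (0.37) and ssc-miR-185 (0.39). These are descriptions over 5 libraries of unequal depth.

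A further list of nervous-system miRNAs (ssc-miR-132, ssc-miR-134, ssc-miR-138, ssc-miR-149, ssc-miR-212, ssc-miR-218, ssc-miR-218b, ssc-miR-219a, ssc-miR-219b, ssc-miR-326, ssc-miR-330, ssc-miR-338, ssc-miR-383, ssc-miR-488 and ssc-miR-708, with or without an arm ending) had 15 names in the table, 13 of them with a read. The 2-fold rule for BLs was passed by 4 (18.7% of all names with a read did so), and only ssc-miR-149 of these had at least 10 reads in both BL libraries. It stood at 123 and 166 RPM in BL_1 and BL_2 and at 27.8, 45.4 and 39.7 RPM in ES-like cells, PEBs and PFFs. Between PEBs and ES-like cells, 4 names lay over 2-fold higher and 3 over 2-fold lower, against 21% and 26.8% of all names. With TMM these counts were 9 and 2, against 30.9% and 16.2% of all names, the added names being ssc-miR-132, ssc-miR-149, ssc-miR-218, ssc-miR-218-5p and ssc-miR-218b, of which the last 3 have nearly equal counts, and ssc-miR-138 no longer passed. ssc-miR-218, the most abundant of the list in PEBs along with its other names, stood at 2328 RPM in ES-like cells and 3429 RPM in PEBs, 1.47 times as high with RPM. With RPM and at least 10 reads in both libraries, the higher were ssc-miR-708-3p (5.49 times), ssc-miR-708-5p (4.08 times) and ssc-miR-212 (2.04 times), the last a partner of miR-132 in a cluster induced by neuronal activity. The lower were ssc-miR-138 (0.401 times), which limits dendritic spine growth, and ssc-miR-219a (0.333 times), which promotes oligodendrocyte formation. In all, ssc-miR-219a had 158 reads in ES-like cells and 131 in PEBs, against 5 and 79 in the BL libraries and 169 in PFFs.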

How the data were processed

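The authors removed short reads and reads without adapter, trimmed with Cutadapt 1.10, aligned with Bowtie 1.1.1 to the pig genome (Sscrofa10.2, Ensembl 72) and used miRDeep2 with the miRNAs of miRBase 21. Deposited values are raw read counts for each mature miRNA at each precursor, with 1 column per library. How reads matching several precursors were counted is not given in the sources used here. The table of predicted loci was not used, since it names no miRNA.

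Counts were summed over precursor rows and divided by the library total (RPM). 95% Wilson and exact conditional binomial intervals cover counting error only, and are too narrow where a read was counted more than once. Ranks, ratios and the 2-fold rule used RPM. Libraries were compared with edgeR 4.0.16 (TMM, quasi-likelihood test, more than 5 reads in at least 3 libraries, Benjamini-Hochberg adjustment, threshold 0.05) in R 4.3.3. A trial on simulated counts had a pass mark only at a spread between libraries (dispersion) far below the 0.728 of these data. Passing it does not show how the test performs here. Alternatives used DESeq2 1.42.0 and limma 3.58.1 (voom), other scalings and filters, and omission of each library. The p-values measure only the spread between these libraries. The text names every member, the 3 nearest profiles and listed miRNAs past 2-fold with at least 10 reads in each library compared. Members and lists were chosen with earlier results of these data known. Other values came from Python 3.11.15 with pandas 2.3.3, scipy 1.17.1 and numpy 2.4.6.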

Additional observations from a re-analysis of the deposited data

How the results depend on the processing

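The count of members past the 2-fold rule for BLs stayed within 1.5 times under all alternatives run. Without BL_1, and with a minimum of 10 reads or a 4-fold threshold, it was 2 in place of 3. Of members higher in PEBs, 1 in place of 3 was left when names with counts within 0.1% were counted once, a setting chosen after seeing the data that merges the 3 names of miR-9 by construction. Of members lower in PEBs, 0 in place of 1 were left with TMM-scaled library sizes and with the 4-fold threshold. In BLs against cultured libraries, 33 names and 1 member were called. DESeq2 called 100 and 3, library totals without TMM 57 and 2, and no filter 51 names. Leaving out 1 library each gave from 0 to 89 names and from 0 to 3 members, where a lone BL library is assumed to vary like the cultured ones. With either BL library left out, 0 names were called by edgeR, with 64 (without BL_1) and 58 (without BL_2) at an unadjusted p under 0.05. In pluripotent against differentiated cells, DESeq2 called 14 names and edgeR without 1 library from 0 to 16, with no member among them. The 16 came with ES-like cells left out, which leaves BLs against PEBs and PFFs.

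Directions of the log2 fold change turned for 3 miRNAs, none of them called, and the cause was not tested. In BLs against cultured libraries, miR-129-5p, at 0.04 in edgeR with all libraries, was at -0.14 without a filter, -0.11 with the largest precursor count, and from -0.29 to 1.06 without 1 library. In pluripotent against differentiated cells, miR-9 (0.08) was at -0.042 with library totals, -0.20 without a filter, -0.14 with the largest precursor count, -0.041 with names within 0.1% tested once, and from -0.37 to 3.19 without 1 library. miR-129-5p (-0.49) was at 0.060 with library totals and from -0.99 to 0.91 without 1 library, and miR-137 (-0.68) at 0.062 with DESeq2 and from -0.25 to 0.35 without 1 BL library.

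The depth of BL_1 limits what can be said of miR-124a, miR-137, miR-153 and miR-129a-3p there. No paired analysis was possible because ES-like cells, PEBs and PFFs have 1 library each.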

Other observations

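The precursor rows of miR-128 differed between libraries in their balance. Reads at ssc-mir-128-1 were 0.879 times those at ssc-mir-128-2 in BL_1 and 0.971 times in BL_2, against 1.13 times in ES-like cells, 1.13 times in PEBs and 1.14 times in PFFs. In both BL libraries the row of ssc-mir-128-2, the hairpin within ARPP21, held more reads, and in all 3 cultured libraries the row of ssc-mir-128-1, within R3HDM1, did. For miR-7 the same ratio of ssc-mir-7-1 to ssc-mir-7-2 ran from 0.981 to 0.997 over the 5 libraries. The rows share an unknown number of reads, so no interval is given for these ratios, and the balance does not show which hairpin was transcribed.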
